A study of Mus musculus with 10 samples.

Results

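Integrins are the receptors by which cells hold and sense the extracellular matrix. Each receptor pairs an α chain with a β chain. The pair decides the ligand: some α chains are laminin receptors, some bind collagen, some bind the RGD motif of fibronectin and vitronectin, and the leukocyte α chains bind ligands on other cells. Talins and kindlins bind the tails of β chains and switch the receptors on. A complex of ILK, a PINCH protein and a parvin then ties the receptor to actin, while FAK, p130Cas, paxillin, vinculin and zyxin gather in the focal adhesion plaque that forms around it. In the early mouse embryo, loss of fibronectin or of its α5 receptor disturbs mesoderm and blood vessels.

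The genes described here are 37 mouse genes of this machinery, chosen by name: 23 integrin chains and 14 cytoplasmic partners. The platelet integrin genes Itga2b and Itgb3 and their kindlin Fermt3 were left out of the choice. In the deposited table of 21868 genes, 36 of the 37 had a row, and Itga10 was not analysed here. The filter on low counts kept 35 of the 36. It removed Itgax, the αX chain of myeloid cells, which had 1 read over the KO libraries and 1 read over the WT libraries.

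The cells were Flk1+ cells from embryoid bodies, the labelled equivalent of the hemangioblast, a mesodermal cell that gives rise to blood and endothelium. One group came from Ldb1-/- embryonic stem cells (KO) and the other from Ldb1+/+ embryonic stem cells (WT). Both were differentiated in suspension in IMDM with fetal calf serum and without LIF. The structure of the allele, the number of clones and the day of RNA collection are not given in the labels of the RNA libraries, so an effect of the genotype cannot be told apart from any other difference between the cell lines. Each genotype had 4 RNA-seq libraries, with 11258493 to 13483294 counts each. Libraries 1 and 2 of a genotype, and libraries 3 and 4, differed by little more than sampling noise: their chi-square per gene was 1.06 to 1.10, against 12.8 to 28.5 between the other pairs of the same genotype. They were therefore summed and counted as 1 sample each. This left KO A and KO B against WT A and WT B, n = 2 per genotype, with 22674679, 26775787, 23182551 and 26221496 counts in that order. The labels do not tell whether A and B are separate cultures, and the spread behind each p-value may be technical.

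Ldb1, the gene named in the genotypes, was at 96.1 and 80.1 CPM (counts scaled to library size, with TMM factors throughout) in KO A and KO B, against 104.8 and 113 CPM in WT A and WT B. Its reads over the whole gene were slightly lower in the KO libraries (log2 fold change −0.31, SE 0.15, edgeR adjusted p = 0.410), and whether they cover a deleted part is not given. Kdr, which encodes Flk1, was at 236 and 78.6 CPM in KO and 439.5 and 605 CPM in WT. The summed level of 12 muscle and mesenchyme markers was 2960 and 5036 CPM in KO and 1313 and 1865 CPM in WT. At an unadjusted edgeR p under 0.05, 8 of the 12 were higher in KO and none lower, beside 7.61% higher and 7.86% lower over all genes tested. The rise was not uniform: 11 of the 12 had log2 fold changes above 0. The remaining 1 lay about as far below 0 as the largest lay above it. The summed level of 12 blood markers was 32.9 and 29.5 CPM in KO and 157 and 178 CPM in WT, with the embryonic globin Hbb-bh1 at 0 in KO. Endothelial markers summed to 540 and 245 CPM in KO and 814 and 445 CPM in WT, so KO A lay above WT B. Of these 8 markers, 2 had log2 fold changes above 0 and 6 below. Pluripotency markers summed to 875 and 1122 CPM in KO and 1961 and 499 CPM in WT, so the WT samples lay on either side of both KO samples. In bulk samples, fewer cells of a type and less RNA per cell cannot be told apart, and the part of these marker differences in the values that follow was not tested.

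No gene of the 35 tested passed the edgeR test at an adjusted p under 0.05 in either direction. Over all 16785 genes tested, that test called 0.125% lower and 0.0596% higher in KO. At an unadjusted edgeR p under 0.05, 12 of the 35 were higher in KO (34.3%) and 4 were lower (11.4%), where over all genes tested 7.61% were higher and 7.86% were lower. The 12 were Tln1, Bcar1, Itgb1, Vcl, Itga3, Itgav, Itga11, Itga5, Fermt1, Lims2, Ilk and Parva, and the 4 were Itgb2, Parvb, Itgae and Itga1. For each of the 16, the fitted difference between genotypes was larger than the difference between A and B within either genotype. The spread between A and B also enters the p that picked these 16, so this is not separate support. Over all 35 tested it held for 18, and over all genes tested for 5706 of 16785. The 4 KO libraries lay wholly above the 4 WT libraries for 12 genes and wholly below for 4, where 14.4% and 14.3% of all genes tested did so. The DESeq2 test called 6 of 34 genes higher (Itga3, Itgb1, Bcar1, Tln1, Vcl and Itgav) and 1 lower (Itgb2), beside 3.69% higher and 3.66% lower over all genes to which it gave an adjusted p. The median log2 fold change of the 35 was 0.21, against −0.01 over all genes tested, with 24 above 0 and 11 below.

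The number of edgeR calls rose when a WT sample was left out, in fits whose spread came from the KO samples alone. The KO samples differed less from each other (chi-square per gene 12.8 to 13.3 between their libraries) than the WT samples did (28.0 to 28.5). Without WT A, edgeR called 5 of the set higher and 4 lower, and without WT B it called 5 higher and 3 lower. The same fits called 8.93% and 9.73% of all genes tested, in both directions together, so more genes were called over the whole table as well. Tln1, Bcar1 and Itgb2 were the genes called in both of those fits. The fits without KO A or without KO B made no calls anywhere in the table, so their calls tell nothing about the set. The median log2 fold change of the set was 0.249 without KO A and 0.052 without KO B.

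**Figure D1:**
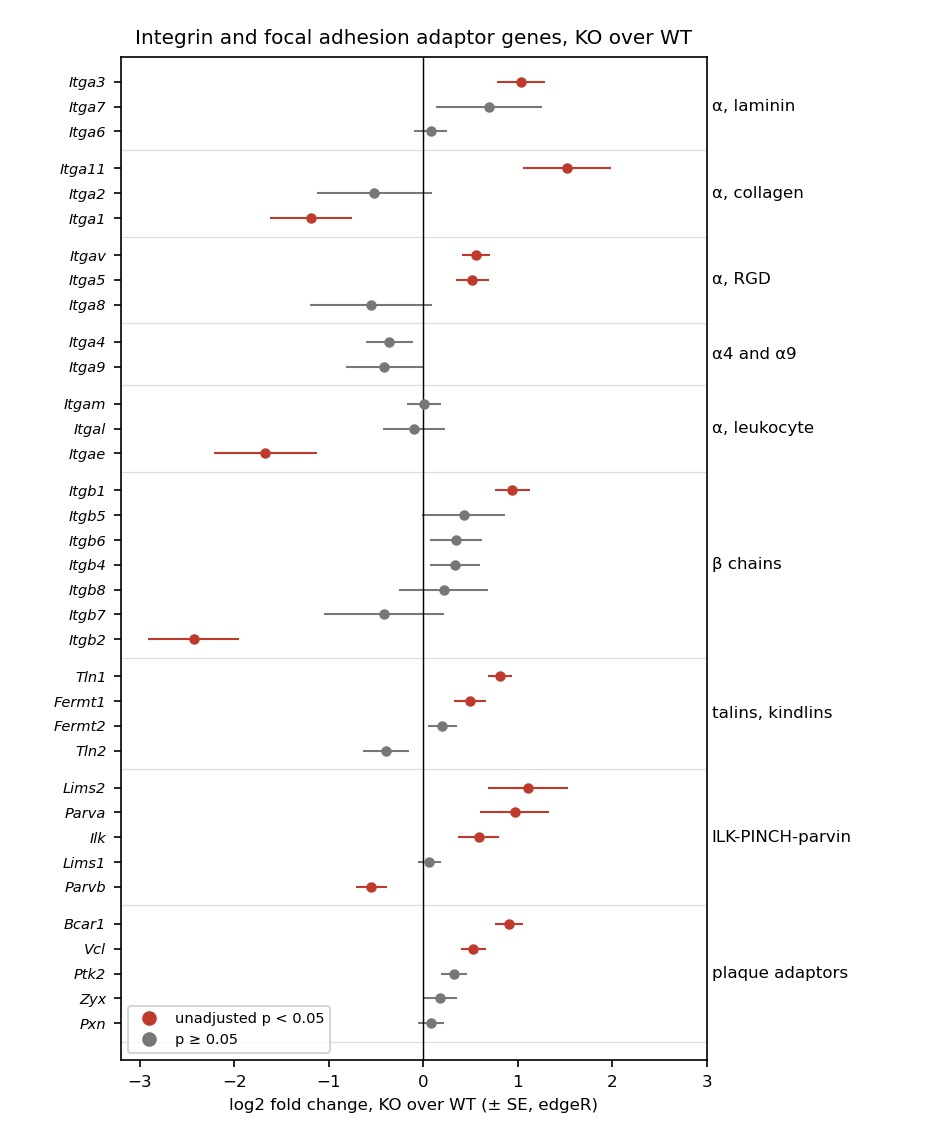
Each point is the log2 fold change of a gene, KO over WT, with its SE from the edgeR fit on 2 KO and 2 WT samples, and genes are grouped by role. Red points had an unadjusted p under 0.05: 12 lie right of 0 and 4 lie left of it.

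Of the 7 β chains, Itgb1 was the most abundant per length. It encodes β1, the partner of most of the matrix-binding α chains listed here. Its level was 873 and 1193 CPM in KO A and KO B, against 515 and 561 CPM in WT A and WT B. Both KO samples lay above both WT samples, with a log2 fold change of 0.94 (SE 0.18, edgeR adjusted p = 0.113). Itgb1 lies on chromosome 8, where the median log2 fold change of 602 well-expressed genes was 0.25, while it lay near 0 on every other chromosome except 11. With each chromosome's median removed, the log2 fold change of Itgb1 was 0.69 (edgeR adjusted p = 0.226).

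The promoter windows of Itgb1 and Vcl are shown because both genes stood higher in KO and theirs were the windows that held a TEAD motif. Each runs from 250 bases before to 50 bases after the RefSeq start in GRCm38.p6, on the plus strand, at chr8:128685404-128685703 for Itgb1 and chr14:20929148-20929447 for Vcl. Capitals mark the matches to the TEAD motif GGAATG and, in Vcl, to the CArG box that serum response factor binds.
Itgb1: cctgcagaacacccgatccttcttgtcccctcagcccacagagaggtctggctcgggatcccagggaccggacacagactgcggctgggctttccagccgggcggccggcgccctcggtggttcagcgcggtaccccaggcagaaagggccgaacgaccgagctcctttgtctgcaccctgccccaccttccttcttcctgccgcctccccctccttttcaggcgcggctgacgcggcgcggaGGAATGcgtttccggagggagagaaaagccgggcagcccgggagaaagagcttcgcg
Vcl: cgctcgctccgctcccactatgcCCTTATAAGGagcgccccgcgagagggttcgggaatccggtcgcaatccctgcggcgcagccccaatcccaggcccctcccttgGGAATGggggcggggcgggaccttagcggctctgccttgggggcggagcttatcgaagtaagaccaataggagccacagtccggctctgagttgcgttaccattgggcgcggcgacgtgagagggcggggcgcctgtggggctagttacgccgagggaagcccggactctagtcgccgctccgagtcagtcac
The motifs were searched on both strands in 31 windows that matched 25 of the 36 genes. GGAATG was in 2 of the 31, against 14.7% of all 32851 mouse windows. The CArG box was in 3 of the 31, those of Vcl, Fermt2 and Itgb6, against 1.63% of all windows. The GATA motif GATAA was in 4 of the 31, in Itgax, Lims1 and Vcl, against 25.4% of all windows. These shares were not adjusted for base makeup. The GC content of the 31 windows ran from 35.7% (Lims1) to 76.7% (Fermt2), against a median of 52.7% over all windows. A match is a string of letters and not a measured site.

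Itgb2 encodes β2, the chain shared by the leukocyte integrins. It was at 0.302 and 0.585 CPM in KO and 2.94 and 1.92 CPM in WT. All KO libraries lay below all WT libraries (log2 fold change −2.43, SE 0.48, edgeR adjusted p = 0.115), on 22 reads over the KO libraries and 120 over the WT libraries. The ratio of these reads, scaled for depth, was 0.183, with an exact 95% interval of 0.111 to 0.290 that covers counting error only.

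Itgb5, which pairs with αv to bind vitronectin, was at 114 and 126 CPM in KO, and WT A and WT B stood apart at 52.3 and 126 CPM. Its log2 fold change was 0.43 (SE 0.44), smaller than the difference of 1.27 between WT B and WT A. Itgb7, a β chain of lymphocytes, was at 2.76 and 3.16 CPM in KO and at 6.23 and 1.70 CPM in WT, so that the WT samples enclosed the KO samples. Itgb4, the β chain that pairs with α6 in epithelial hemidesmosomes, averaged 36.9 CPM in KO and 29.2 CPM in WT (log2 fold change 0.34, SE 0.26). It lies on chromosome 11, whose median log2 fold change was −0.47 over 904 genes. With chromosome medians removed its value was 0.81 (edgeR adjusted p = 0.310). The αv partners Itgb6 and Itgb8 differed between the genotypes by 0.35 (SE 0.28) and 0.21 (SE 0.47) on the log2 scale and stood between 2.09 and 6.83 CPM in every sample.

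Itga3 encodes α3, which with β1 forms a receptor for laminins. It was the most abundant α gene of the KO samples per length. It was at 349.9 and 503.4 CPM in KO and 243.7 and 174.2 CPM in WT. The samples did not overlap, and within each genotype B and A differed by about the same amount in opposite directions, 0.52 in KO and −0.48 in WT on the log2 scale. The log2 fold change was 1.03 (SE 0.25, edgeR adjusted p = 0.165). Itga3 also lies on chromosome 11, against the direction of that chromosome's median, and with chromosome medians removed its log2 fold change was 1.501 (edgeR adjusted p = 0.140).

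The other laminin chains did not differ beyond the spread between samples. Itga6, the α chain of the α6β1 and α6β4 laminin receptors, was at 163 and 170 CPM in KO and 181 and 134 CPM in WT, so the groups overlapped (log2 fold change 0.08, SE 0.18). Itga7, known from muscle, was at 1.43 and 3.86 CPM in KO and 2.01 and 1.28 CPM in WT.

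The collagen receptor chains went in opposite directions. Itga1 encodes α1, known as a receptor for basement membrane collagen. It was at 5.70 and 3.28 CPM in KO and 13.3 and 7.13 CPM in WT, with every KO library below every WT library (log2 fold change −1.19, SE 0.43, edgeR adjusted p = 0.283). Itga11 encodes α11, a fibrillar collagen receptor of mesenchymal cells. It was at 4.02 and 9.52 CPM in KO and 2.43 and 2.30 CPM in WT (log2 fold change 1.52, SE 0.47, edgeR adjusted p = 0.213). KO B exceeded KO A by 1.23 on the log2 scale, and both stood above WT. Their reads scaled for depth had KO to WT ratios of 0.431 for Itga1 (exact 95% interval 0.365 to 0.506) and 2.85 for Itga11 (2.31 to 3.55). These intervals too cover counting error only. Without KO B, the log2 fold change of Itga11 was 0.76. Itga2, the α2 chain, stood between 0.624 and 2.09 CPM in all samples.

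Of the RGD-binding chains, Itga5 and Itgav stood higher in KO. Itga5, whose product with β1 is the main fibronectin receptor, was at 232 and 305 CPM in KO and 195 and 179 CPM in WT (log2 fold change 0.52, SE 0.17, edgeR adjusted p = 0.233). Itgav, the αv chain that pairs with several β chains, was at 77.8 and 91.6 CPM in KO and 60.9 and 54.1 CPM in WT (log2 fold change 0.56, SE 0.15, edgeR adjusted p = 0.173). For both genes the samples of the genotypes did not overlap. Itga8, a receptor chain for nephronectin in the kidney, was at 8.12 and 5.39 CPM in KO, while WT A had 4.40 CPM and WT B had 15.4 CPM.

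Neither of the α4 and α9 chains separated the genotypes. Itga4, which binds VCAM-1 and fibronectin, was at 24.0 and 15.5 CPM in KO and 26.7 and 23.9 CPM in WT (log2 fold change −0.36, SE 0.25). Itga9 was at 19.9 and 13.97 CPM in KO and 14.5 and 30.5 CPM in WT, and WT B exceeded WT A by 1.07 on the log2 scale. The direction of Itga8 and of Itga9 turned without WT B, to 0.62 and 0.23 on the log2 scale, and both were called lower without WT A.

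The leukocyte α chains were mostly low. Itgam, the αM chain of myeloid cells, was the exception, at 41.8 and 54.2 CPM in KO and 45.0 and 50.6 CPM in WT, with no difference beyond the spread (log2 fold change 0.01, SE 0.18). Per length, its level stood above that of Itgb2, its partner chain, in every sample. Itgae, the αE chain of lymphocytes that bind E-cadherin, was at 0.346 and 0.312 CPM in KO and 1.45 and 0.679 CPM in WT. All KO libraries lay below all WT libraries (log2 fold change −1.67, SE 0.55, edgeR adjusted p = 0.232), on 16 KO reads and 52 WT reads. On chromosome 11 with its median removed, the value for Itgae was −1.21 (edgeR adjusted p = 0.454). Itgal, the αL chain, was at 6.61 and 3.94 CPM in KO and 5.85 and 5.43 CPM in WT.

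Of the platelet genes left out of the set, the αIIb chain and the blood kindlin fell in KO. Itga2b, which encodes αIIb, was at 3.46 and 2.65 CPM in KO and 53.2 and 56.8 CPM in WT, and fell by 4.17 on the log2 scale (SE 0.20, edgeR adjusted p = 0.0102). Fermt3, the kindlin of blood cells, was at 3.67 and 2.15 CPM in KO and 28.3 and 24.6 CPM in WT, and fell by 3.19 (SE 0.31, edgeR adjusted p = 0.0493). Itgb3, the β3 chain, was at 14.3 and 19.3 CPM in KO and 60.3 and 41.0 CPM in WT, and its log2 fold change of −1.59 (SE 0.26) had an edgeR adjusted p of 0.105. These genes stood beside blood markers that summed to 32.9 and 29.5 CPM in KO and 157 and 178 CPM in WT, whose part was not tested.

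**Figure D2:**
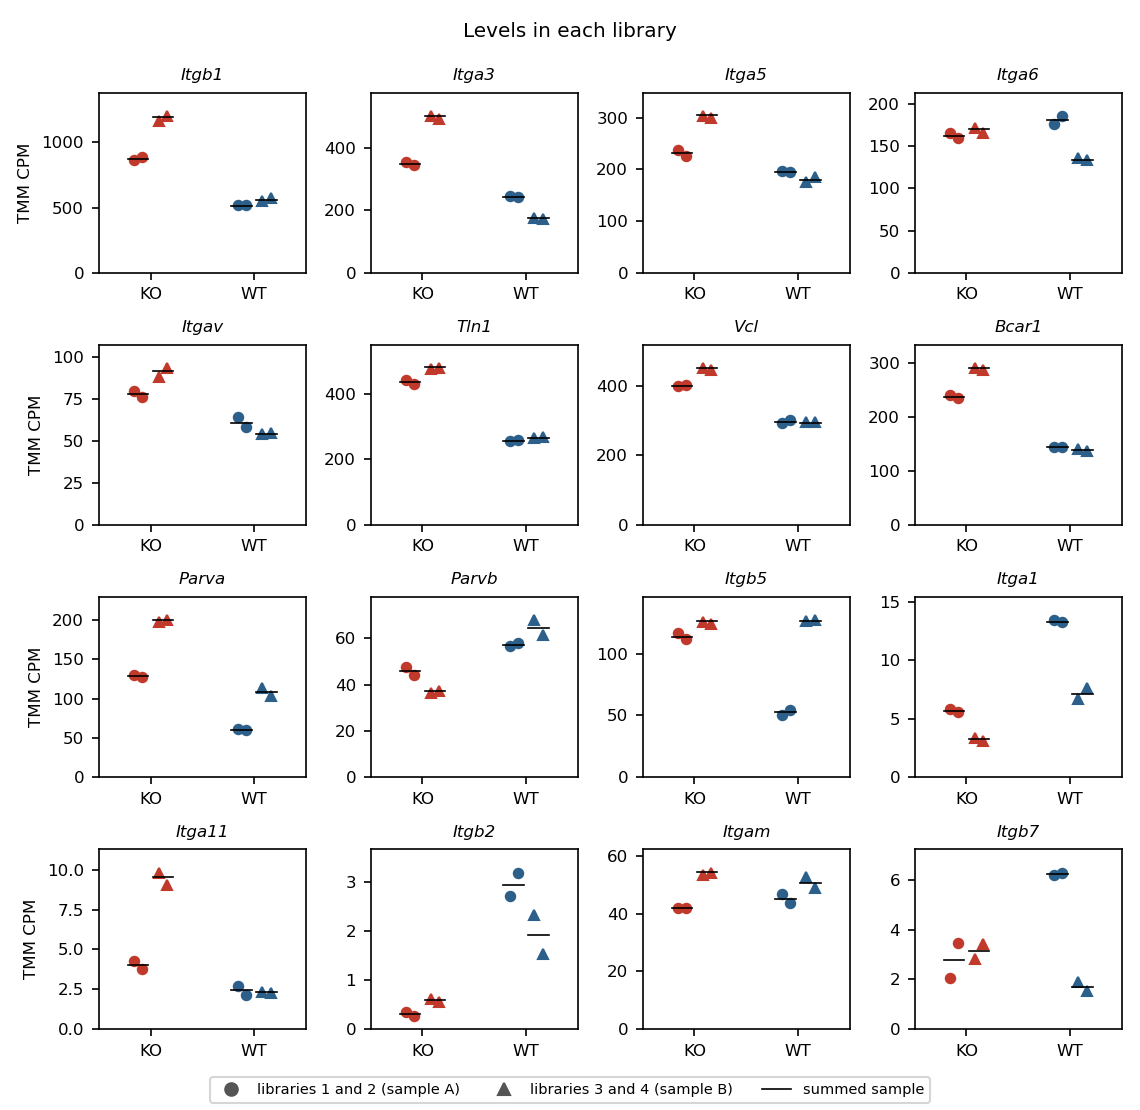
TMM-scaled CPM of 16 genes in each of the 8 libraries, with KO left of WT, circles for libraries 1 and 2, triangles for libraries 3 and 4, and black lines for the summed samples. Itgb1, Tln1, Bcar1 and Vcl separate the genotypes in all libraries, whereas Itgb5 and Itgb7 differ between WT A and WT B.

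Divided by transcript length, levels of different genes can be compared within a sample. The sums and shares that follow cover the integrin genes of the set. They leave out Itga2b and Itgb3, which stood lower in KO as given above. Itga3 made up 35.1% and 40.0% of the summed α level per kb in KO A and KO B, against 28.5% and 24.1% in WT A and WT B. Itga6 made up 18.8% and 15.6% in KO and 24.4% and 21.4% in WT. Itga5 stayed between 25.3% and 27.5% in all 4 samples, and Itgav between 9.04% and 9.91%. Itga3 led in KO and in WT A, while Itga5 led in WT B. Itgb1 made up 86.6% and 88.4% of the summed β level per kb in KO and 86.3% and 79.3% in WT, and Itgb5 made up 11.0% and 9.09% in KO and 8.53% and 17.3% in WT. Summed over the β genes of the set, the level was 339.6 and 454 CPM per kb in KO and 201 and 238 CPM per kb in WT. Over the α genes of the set it was 205 and 259 CPM per kb in KO and 176 and 149 CPM per kb in WT. These sums and shares are descriptions with n = 2 and have no test.

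**Figure D3:**
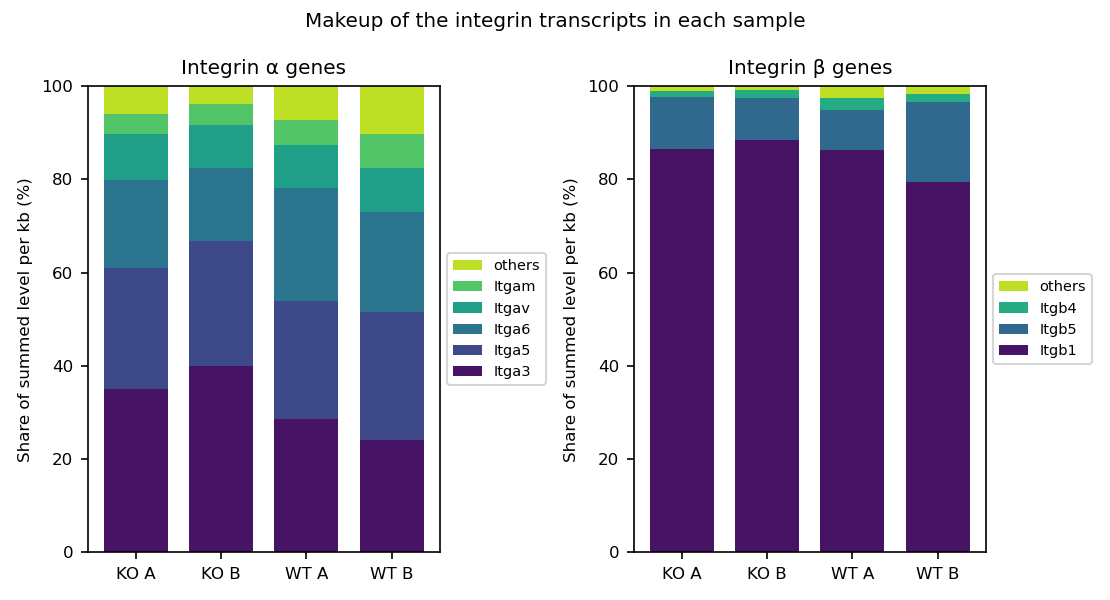
Stacked bars give each gene's share, in percent, of the summed level per kb in KO A, KO B, WT A and WT B. The integrin α genes of the set are on the left and its β genes on the right, without Itga2b and Itgb3. Itga3 takes 35.1% and 40.0% of the α level in KO and 28.5% and 24.1% in WT, and Itgb1 takes most of the β level in all 4 samples.

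Tln1, the widely expressed talin, had the smallest p of the set. It was at 434.9 and 480.2 CPM in KO and 256 and 265 CPM in WT. The samples of a genotype lay close together and the genotypes did not overlap (log2 fold change 0.81, SE 0.13, edgeR adjusted p = 0.100). Tln2, the talin of muscle and brain, was at 52.5 and 37.9 CPM in KO and 49.6 and 69.3 CPM in WT (log2 fold change −0.40, SE 0.24). Fermt2, the kindlin of most tissues, was at 174 and 219 CPM in KO and 168 and 174 CPM in WT (log2 fold change 0.20, SE 0.16). Fermt1, the kindlin of epithelia, had fewer CPM than Fermt2 in every sample. It stood higher in KO, at 19.1 and 17.99 CPM against 13.8 and 12.5 CPM in WT (log2 fold change 0.49, SE 0.17, edgeR adjusted p = 0.259).

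In the ILK complex, the kinase-like scaffold Ilk was at 131 and 196 CPM in KO and 101 and 117 CPM in WT (log2 fold change 0.58, SE 0.22, edgeR adjusted p = 0.298). The parvins link ILK to actin, and the pair stood on opposite sides of 0. Parva was at 129 and 200.4 CPM in KO and 60.5 and 108 CPM in WT (log2 fold change 0.97, SE 0.37, edgeR adjusted p = 0.322). Parvb was at 45.9 and 37.1 CPM in KO and 57.1 and 64.4 CPM in WT (log2 fold change −0.55, SE 0.16, edgeR adjusted p = 0.203). Of the PINCH genes, Lims1 was near-equal at 113 and 115 CPM in KO and 111 and 108 CPM in WT. Lims2 was low, at 3.07 and 4.64 CPM in KO and 2.30 and 1.28 CPM in WT, and its libraries overlapped between the genotypes although its unadjusted edgeR p was 0.0414.

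All 5 plaque genes had log2 fold changes above 0. Vcl, the highest in CPM, encodes vinculin, which binds talin and actin. Its level was 399.8 and 451 CPM in KO and 296 and 294 CPM in WT (log2 fold change 0.53, SE 0.13, edgeR adjusted p = 0.148). Bcar1 encodes the scaffold p130Cas, a substrate of FAK and Src. It was at 237 and 291 CPM in KO and 144 and 139 CPM in WT (log2 fold change 0.90, SE 0.15, edgeR adjusted p = 0.105). Bcar1 lies on chromosome 8 like Itgb1, and with chromosome medians removed its value was 0.66 (edgeR adjusted p = 0.178). Ptk2, which encodes FAK, was at 142 and 126 CPM in KO and 112 and 103 CPM in WT, without overlap between libraries but with an edgeR adjusted p of 0.350. Zyx (zyxin) and Pxn (paxillin) overlapped between the genotypes, and their log2 fold changes were 0.18 (SE 0.17) and 0.08 (SE 0.14).

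Gene models that overlap those of Vcl, Zyx, Itga4, Itga1, Itga7, Itgae, Itgb4, Ilk and Lims2 could share reads with them, with the use of strand in counting not given in the sources used here. Haspin, which lies inside Itgae, averaged 15.4 CPM in KO and 25.9 CPM in WT, and Pelo, which lies inside Itga1, averaged 17.97 CPM in KO and 19.7 CPM in WT. Galk1, which overlaps Itgb4, averaged 72.7 CPM in KO and 120 CPM in WT. Epha1, which overlaps Zyx, averaged 39.1 CPM in KO and 17.98 CPM in WT. Mettl7b, which overlaps Itga7, averaged 0 CPM in KO and 0.0377 CPM in WT, so it had almost no reads to share. The values of the other genes named are uncertain because of the overlaps.

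Related genes that serve the same step were compared as log2 ratios of their levels per kb. The ratio of Tln1 to Tln2 was 3.49 and 4.10 in KO and 2.81 and 2.37 in WT. The ratio of Parva to Parvb was 1.23 and 2.17 in KO and −0.18 and 0.48 in WT, so that Parvb exceeded Parva only in WT A. The ratio of Itga11 to Itga1 was −0.80 and 1.24 in KO and −2.75 and −1.93 in WT, and Itga11 exceeded Itga1 only in KO B. The ratio of Itga3 to Itga6 was 0.90 and 1.36 in KO and 0.22 and 0.17 in WT. The ratio of Lims1 to Lims2 was 3.87 and 3.30 in KO and 4.26 and 5.06 in WT. These 5 ratios did not overlap between the genotypes. That of Fermt2 to Fermt1 did, at 3.86 and 4.28 in KO and 4.27 and 4.48 in WT. With 2 samples against 2, a two-sided exact permutation test cannot go below p = 0.333, which each of the 5 reached (adjusted over the 6 ratios, p = 0.400), and Fermt2 to Fermt1 had p = 0.667 by the same exact test.

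**Figure D4:**
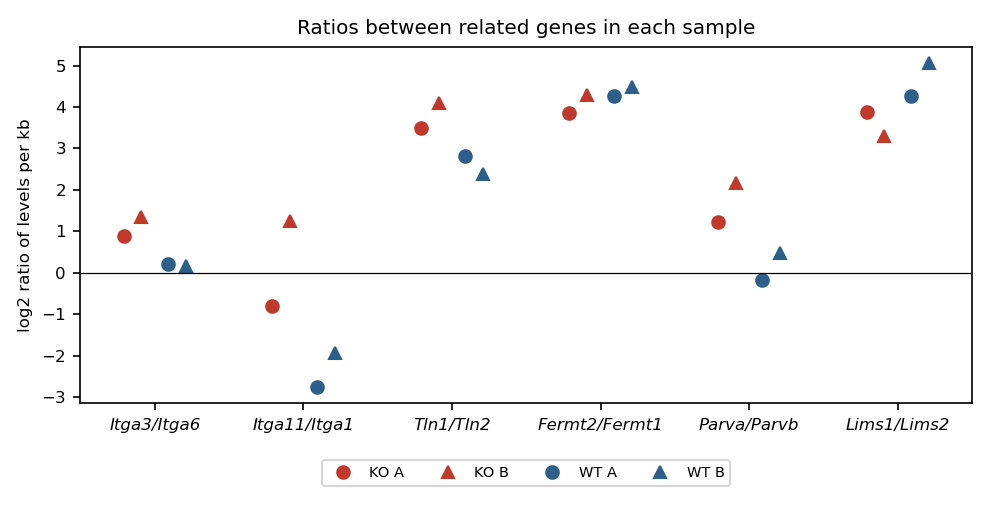
Each point is the log2 ratio of the levels per kb of a pair of related genes in KO A and KO B (red) and in WT A and WT B (blue). The KO and WT points are apart for 5 of the 6 pairs, with Fermt2 to Fermt1 the pair that overlaps.

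The ligands of these receptors were counted as a list of 30 genes, of which 27 were tested. By the edgeR adjusted p, 1 was higher in KO and none lower. At an unadjusted edgeR p under 0.05, 12 of the 27 were higher and 2 lower, beside 7.61% higher and 7.86% lower over all genes tested. Their median log2 fold change was 0.40. The gene that passed was Col1a2, a chain of type I collagen, at 526 and 882 CPM in KO and 77.8 and 76.8 CPM in WT, and it rose by 3.19 on the log2 scale (SE 0.28, edgeR adjusted p = 0.0493). Col1a2, like Col1a1 and Col3a1, is in both this list and the muscle and mesenchyme marker list, so the counts of those lists are not separate. Fn1, fibronectin, the ligand gene with the highest CPM, was at 1808 and 2232 CPM in KO and 1536 and 2014 CPM in WT, and the groups overlapped (log2 fold change 0.19, SE 0.19). Cdh1, E-cadherin, was at 1058 and 1097 CPM in KO and 608 and 396 CPM in WT (log2 fold change 1.10, SE 0.22, edgeR adjusted p = 0.123).

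Of 25 genes that link focal adhesions to actin, all were tested, and by the edgeR adjusted p none was called. At an unadjusted edgeR p under 0.05, 9 were higher in KO and none lower, beside 7.61% higher and 7.86% lower over all genes tested. DESeq2 called 8 higher and none lower, beside 3.69% higher and 3.66% lower over all genes with its adjusted p. Their median log2 fold change was 0.46, with 22 above 0 and 3 below. Flna, filamin A, was at 1658 and 1686 CPM in KO and 848 and 1088 CPM in WT (log2 fold change 0.79, SE 0.16, edgeR adjusted p = 0.117). The muscle and mesenchyme markers that stood higher in KO are the values given above, and their part in these counts was not tested.

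**Figure D5:**
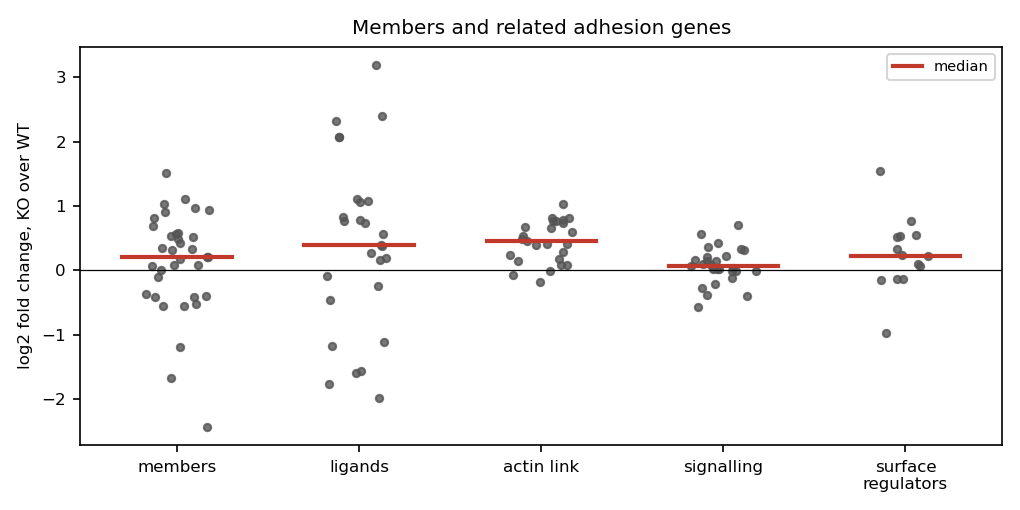
Each grey point is the log2 fold change of a gene, KO over WT, in the integrin and adaptor set and in 4 lists of related adhesion genes, with the median of each as a red line. The medians are 0.21 for the set, 0.40 for ligands, 0.46 for the actin link, 0.06 for signalling and 0.23 for surface regulators.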

How the data were processed

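The authors deposited whole-number read counts per gene for 8 RNA-seq libraries of Flk1+ cells, with a transcript length per gene. Per the submitters' processing notes, the build was mm9 and DESeq was used, with aligner, counter and strand setting not given in the sources used here. No per-sample column was left unmapped (0). The Ldb1 ChIP-seq peak list was not used here.

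Symbols came from a list of gene names matched by gene ID, and chromosomes from the RefSeq genes of GRCm38.p6, matched by symbol. Of 21868 IDs, 20362 matched a symbol and 19332 a chromosome. Libraries 1 and 2, and 3 and 4, of a genotype were summed into samples A and B. The deposited counts were fitted over the whole table with edgeR 4.0.16 (R 4.3.3; TMM, filterByExpr, glmQLFit with robust estimation and glmQLFTest), with Benjamini-Hochberg adjustment over 16785 genes and a threshold of 0.05. The script was tested on simulated data. SE came from the fold change and its F statistic, and CPM are TMM-scaled. DESeq2 1.42.0, limma-voom (limma 3.58.1), RLE scaling, no filter, a replicate block, removal of each chromosome's median, and leaving out samples or libraries were alternatives. Descriptions used Python 3.11.15 with pandas 2.3.3, numpy 2.4.6 and scipy 1.17.1.

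The genes of the set and all lists were chosen with earlier results of these data known. Values per sample are given for genes past the edgeR test, for genes whose libraries did not overlap with a log2 fold change of at least 1 in size, and for the most abundant gene of each role. Of each related list, the genes past the test and the 2 most abundant are named, except 1 gene that is not reported here. Values of other genes of the set are added so that each is accounted for.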

Additional observations from a re-analysis of the deposited data

How the results depend on the processing

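Over all genes, edgeR called 31 with the samples as reported, 151 with no filter on low counts, 5 with the replicate block and 3 with limma-voom, and DESeq2 called 1140. Leaving out a sample or a library moved this count between 0 and 1674: it was 0 without KO A and without KO B (1704 and 1106 at an unadjusted p under 0.05), 1537 without WT A and 1674 without WT B. Where a genotype had a lone sample, it was assumed to vary like the other genotype. Within the set, no gene was called with edgeR as reported, with RLE scaling, no filter, chromosome medians removed, limma-voom or the replicate block, while DESeq2 called 1 lower and 6 higher. Leaving out a sample or a library gave 0 to 4 lower and 0 to 5 higher. The median log2 fold change of the set was 0.21 as reported, 0.31 with the replicate block and 0.30 with limma-voom, and it lay between 0.052 (without KO B) and 0.39 (without WT B) when samples or libraries were left out, with 0.33 without WT library 3. Some of the genes with an unadjusted edgeR p under 0.05 lay near that threshold. With chromosome medians removed, this p was 0.055 for Parva, 0.052 for Ilk and 0.073 for Itgae, while Itgb4 came under the threshold at 0.026. With the replicate block, it was 0.067 for Lims2 and 0.052 for Fermt1. The labels do not tell whether A of one genotype was handled together with A of the other. The deviations of A and B from their genotype means correlated at −0.08 between the genotypes. With a single A and B per genotype, this value cannot decide whether they were paired.

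Of 630 fold changes under 18 alternatives, 585 kept their direction and their side of the threshold, 24 passed it, and 21 turned their direction. No gene of the set was called as reported, so the 585 stayed uncalled. Itgae, to which DESeq2 gave no adjusted p, was counted as uncalled there. Leaving out 1 library was a weak check, as the libraries of a sample differed by little more than sampling noise. The turns fell in 13 genes, and 22 genes had none. Itgam, near 0 throughout, was at −0.0030 with the replicate block, −0.029 with chromosome medians removed and −0.0020 with limma-voom. The others turned when a sample was left out. Their ranges were −0.195 to 0.187 for Itgam, −0.015 to 0.63 for Itgb4, −0.20 to 1.24 for Itga7, −0.27 to 0.95 for Itgb8, −0.51 to 0.23 for Itgal, −0.079 to 1.20 for Itgb5, −1.065 to 0.795 for Itgb7, −1.246 to 0.188 for Itga2, −0.0098 to 0.395 for Zyx, −1.20 to 0.62 for Itga8, −0.86 to 0.225 for Itga9, −0.115 to 0.30 for Itga6 and −0.013 to 0.18 for Pxn. The causes were not tested. Depth limits Itgb2, Itgae, Itga2 and Itgax, with 22, 16, 50 and 1 reads over the KO libraries and 120, 52, 73 and 1 over the WT libraries.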

Other observations

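Of 27 genes of adhesion signalling tested, none passed the edgeR test, and their median log2 fold change was 0.06. At an unadjusted edgeR p under 0.05, 2 were higher and 2 lower in KO (7.61% and 7.86% over all genes tested). DESeq2 called 2 higher and 1 lower (3.69% and 3.66% over all genes with its adjusted p). Highest in CPM were the small GTPase genes Cdc42, at 379 and 448 CPM in KO and 317 and 340.2 CPM in WT (log2 fold change 0.33, SE 0.14), and Rhoa, at 307 and 362 CPM in KO and 312 and 283 CPM in WT (0.17, SE 0.14).

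Of 14 surface genes that regulate integrins, none passed the edgeR test. At an unadjusted edgeR p under 0.05, 2 were higher and 1 lower in KO, beside 7.61% and 7.86% over all genes tested. DESeq2 called 2 higher and 1 lower, beside 3.69% and 3.66% over all genes with its adjusted p. The tetraspanin genes Cd81 and Cd9 had the highest CPM, and differed by 0.55 (SE 0.23) and 0.54 (SE 0.32) on the log2 scale. Plaur and Cav1 were chosen after their values were seen. Plaur, the urokinase receptor, was at 38.7 and 49.3 CPM in KO and 17.8 and 12.4 CPM in WT (log2 fold change 1.54, SE 0.24, edgeR adjusted p = 0.100). Cav1, caveolin, was at 9.24 and 8.86 CPM in KO and 20.8 and 14.9 CPM in WT (log2 fold change −0.98, SE 0.23, edgeR adjusted p = 0.144).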
